A study of Mus musculus with 8 samples.

Results

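*Wdfy1*, *Gm15433*, *C130026I21Rik*, *Gm7609*, *Sp100*, *Sp110* and *Sp140* are 7 genes on mouse chromosome 1 in a block of the genome build GRCm38 that begins just before *Wdfy1* and ends at 86 Mb. They were selected because their levels in earlier results of these data were higher in CD1d-KO than in WT peritoneal macrophages (pMacs). All values of that contrast are therefore given for them as a description. Their fitted fold changes, standard errors and calls come from the fit over all genes and are not a test of the members. The deposited tables hold 48795 genes, of which 126 are annotated in this block, so 119 genes of the block are not members. All 7 members were found by symbol and Ensembl identifier, and all 7 passed the filter on low counts.

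Polyadenylated RNA of pMacs was sequenced in 8 libraries, 1 for each of 4 WT mice and 4 CD1d-KO mice. The study states that these pMacs, which it obtains by peritoneal lavage, were purified. WT mice were C57BL/6. The methods of the study name a pair of CD1d-KO lines, B6.129S6-Del(3Cd1d2-Cd1d1)1Sbp/J, in which *Cd1d1* and *Cd1d2* are deleted, and CD1d flox x PGK-Cre, in which the broadly active PGK promoter drives Cre. The labels do not give which line these libraries came from. Mice were age- and sex-matched and were 8 to 16 weeks old, and the study describes the controls of this experiment as littermates. No treatment is given in the labels for any group. Libraries are named by genotype and replicate number (1, 2, 3 and 5), and WT and CD1d-KO libraries of the same number form a pair.

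WDFY1 is a WD-repeat and FYVE-domain protein that binds phosphatidylinositol 3-phosphate on early endosomes and helps the adaptor TRIF join TLR3 and TLR4. SP100, SP110 and SP140 are speckled proteins of the nucleus. SP100 is a constant component of PML nuclear bodies, and SP110 and SP140 read chromatin marks and are studied in macrophages for their part in resistance to mycobacteria. Genes of this family are known as interferon-inducible. Their mouse locus holds many duplicated copies and pseudogenes, and in some wild mice it is amplified into a long array.

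The start regions of several members are near-identical to each other and are shown to make this duplication visible. RefSeq (build GRCm38.p6) gave windows from 250 bases before to 50 bases after the start for 5 members, and no window was matched for *Wdfy1* and *Gm15433*. The best ungapped match upstream of both starts was printed for each pair below, with capitals at the base that differs. The *Sp100* stretch covers chr1:85649766-85650013 (plus strand) and its match before *Gm7609* covers chr1:85199361-85199608 (plus strand), and they differed at 1 of 248 bases (99.6% identity). The RefSeq start of *Sp140* lies inside the longer GENCODE gene model. The *Sp140* stretch covers chr1:85600460-85600664 (plus strand) and its match before *C130026I21Rik* covers chr1:85270567-85270771 (minus strand), and they differed at 1 of 205 bases (99.5% identity).
Sp100: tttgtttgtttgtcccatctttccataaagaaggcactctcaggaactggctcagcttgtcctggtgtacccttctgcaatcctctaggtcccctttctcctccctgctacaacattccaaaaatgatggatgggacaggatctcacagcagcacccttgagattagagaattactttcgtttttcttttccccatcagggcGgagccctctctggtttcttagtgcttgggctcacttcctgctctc
Gm7609: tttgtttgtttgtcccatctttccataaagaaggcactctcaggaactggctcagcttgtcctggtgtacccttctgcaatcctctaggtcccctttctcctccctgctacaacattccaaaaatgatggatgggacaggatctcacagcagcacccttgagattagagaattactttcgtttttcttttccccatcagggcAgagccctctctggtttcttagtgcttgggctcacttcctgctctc
Sp140: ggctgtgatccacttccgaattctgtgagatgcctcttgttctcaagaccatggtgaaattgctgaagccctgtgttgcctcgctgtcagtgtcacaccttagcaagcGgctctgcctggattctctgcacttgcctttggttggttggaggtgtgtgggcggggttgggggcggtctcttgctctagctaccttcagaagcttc
C130026I21Rik: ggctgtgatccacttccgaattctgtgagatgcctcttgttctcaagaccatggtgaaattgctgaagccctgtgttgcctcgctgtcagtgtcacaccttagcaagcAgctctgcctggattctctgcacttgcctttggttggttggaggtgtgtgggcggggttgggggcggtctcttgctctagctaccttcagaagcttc

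The longest run that the windows of *Sp100* and *Sp110* shared, with at most 1 mismatch, was 18 bases with the letters ACTTTCNTTTTTCTTTTC. On either strand, this run was in 4 of the 32851 mouse promoter windows (0.0122%), and those were the windows of *Sp100*, *Gm7609* and *Sp110*, *Sp100* having more than 1 window. It was read from these genes, so its rarity is a description. It lies at chr1:85649939-85649956 for *Sp100* and at chr1:85598786-85598803, on the minus strand and 8 to 25 bases after a start, for *Sp110*. The core letters of the interferon-stimulated response element, GAAANNGAAA, were in 1131 windows (3.44%) and those of the gamma-activated site, TTCNNNGAA, in 2726 windows (8.3%). Neither was in any of the 7 windows of members, counting both strands and letting matches overlap. Only these exact letters and spacings were sought. The 18-base run above holds GAAA on its other strand at other spacings, which were not counted.

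Between 13698864 and 19059432 reads were counted on genes per library, and both replicate 1 libraries were the deepest. The deleted gene *Cd1d1* had 67.6, 174, 95.3 and 139.8 normalized counts (scaled to the mean library size) in WT replicates 1, 2, 3 and 5. It had 1.13, 0 and 1.09 in CD1d-KO replicates 2, 3 and 5, where a count of 0 allows up to 3 counts. The library labelled CD1d-KO replicate 1 goes against its label, with 60.1 normalized counts. Member values are therefore given with and without replicate 1. Macrophage markers were abundant in all libraries, with 10020 to 14060 normalized counts of *Adgre1*, which encodes F4/80, and 34890 to 42970 of *Csf1r*, the receptor of macrophage colony-stimulating factor. T cell markers were near 0, with 2.33 to 12.5 normalized counts of *Cd3e* and 0 to 7.15 of *Cd3d*. B cell markers were present, with 142 to 1187 normalized counts of *Cd79a*, which encodes a chain of the B cell receptor complex.

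*Wdfy1* was the member with the clearest separation of the genotypes. *Wdfy1* (ENSMUSG00000073643, protein coding) lies at chr1:79702262-79776143 on the minus strand. It had 288, 256, 336 and 298 normalized counts in WT replicates 1, 2, 3 and 5, and 629.9, 725, 954 and 655 in the CD1d-KO libraries of the same numbers. All 4 CD1d-KO libraries were above all 4 WT libraries, and CD1d-KO replicate 3 was the highest. The means were 294 ± 33.0 in WT and 741 ± 148 in CD1d-KO pMacs (SD, n = 4 each), a log2 fold change of 1.32 (standard error 0.10). Within pairs 1, 2, 3 and 5 the CD1d-KO level was 2.19, 2.83, 2.84 and 2.20 times the WT level. Without replicate 1 the log2 fold change was 1.38. In these bulk samples, more cells of a type and more RNA per cell cannot be told apart.

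Across all genes, 136 of 13040 tested (1.04%) had all 4 CD1d-KO libraries above all 4 WT libraries, and *Wdfy1* was the only member among them. The quasi-likelihood test of edgeR called 5 of 13040 genes (0.0383%) between the genotypes, with an adjusted p below 0.01 and a fold change over 1.5, all 5 higher in CD1d-KO, and *Wdfy1* was the only member called. Leaving out 1 replicate number at a time, edgeR called 7 genes without replicate 1, 22 without replicate 2, and 3 each without replicate 3 and without replicate 5. DESeq2 called 103 of 11802 genes (0.873%), and among them were 4 members, *Wdfy1*, *Gm15433*, *C130026I21Rik* and *Gm7609*. Since the members were chosen on this contrast, nothing is read from these counts.

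**Figure D1:**
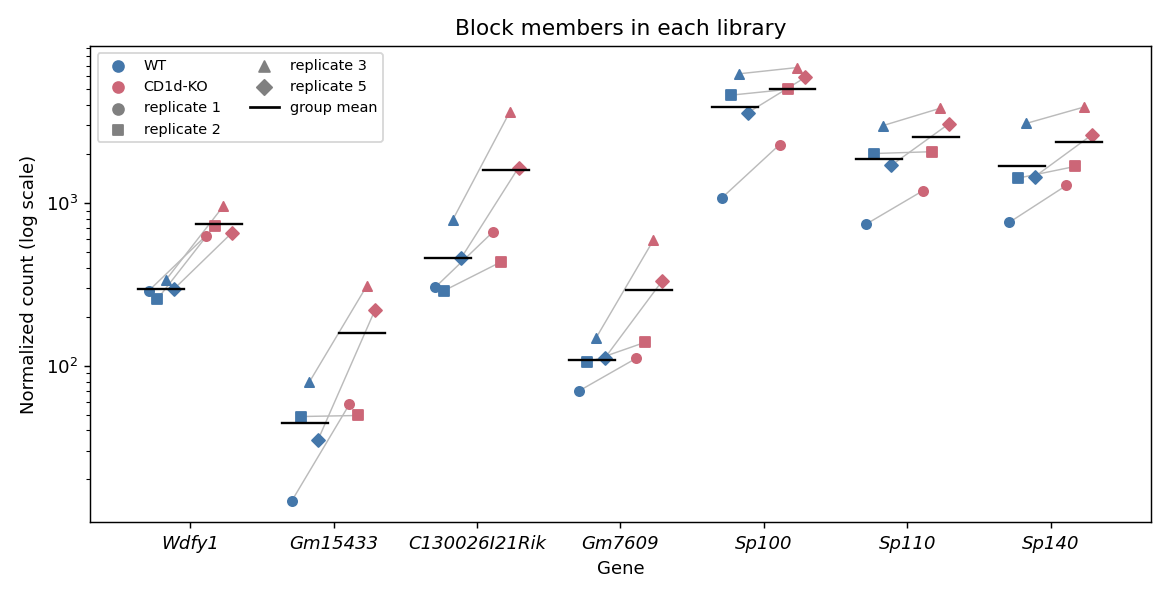
Normalized counts (log axis) of the 7 members in each library, with WT in blue and CD1d-KO in red, grey lines joining libraries of the same replicate number and black bars marking group means. *Wdfy1* separates the genotypes, from 256 to 336 in WT and from 629.9 to 954 in CD1d-KO, while the groups overlap for the other 6 genes although each pair has the higher value in CD1d-KO.

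The size of the *Wdfy1* difference depended on whether reads or transcripts were counted. On the TPM scale, which divides by transcript length, *Wdfy1* had 20.01, 13.9, 11.2 and 16.3 TPM in WT replicates 1, 2, 3 and 5, and 22.9, 21.4, 30.8 and 28.3 TPM in the CD1d-KO libraries. The groups still did not overlap, but WT replicate 1 lay close below CD1d-KO replicate 2. The means were 15.3 ± 3.75 and 25.8 ± 4.42 TPM (SD, n = 4 each), and the log2 fold change on the log2(TPM + 1) scale was 0.73. The mean transcript length of *Wdfy1*, which RSEM weights by the estimated share of each transcript, was 1765, 1814, 2975 and 1920 bases in WT replicates 1, 2, 3 and 5. In the CD1d-KO libraries it was 3223, 3307, 2884 and 2587 bases. It was longer in CD1d-KO in 3 of 4 pairs, and WT replicate 3, at 2975 bases, lay within the CD1d-KO range. GENCODE M21 lists 4 *Wdfy1* transcripts of 4551 bases and others of 460 to 1359 bases, so a longer mean stands for a larger estimated share of the long forms. Of 9251 tested genes whose length varied, 25.4% were longer in CD1d-KO in at least 3 of 4 pairs. Among members this also held for *C130026I21Rik* (751 to 803 bases in WT, 746 to 901 in CD1d-KO), *Gm7609*, *Sp100* and *Sp110*, whose ranges overlapped between the genotypes.

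**Figure D2:**
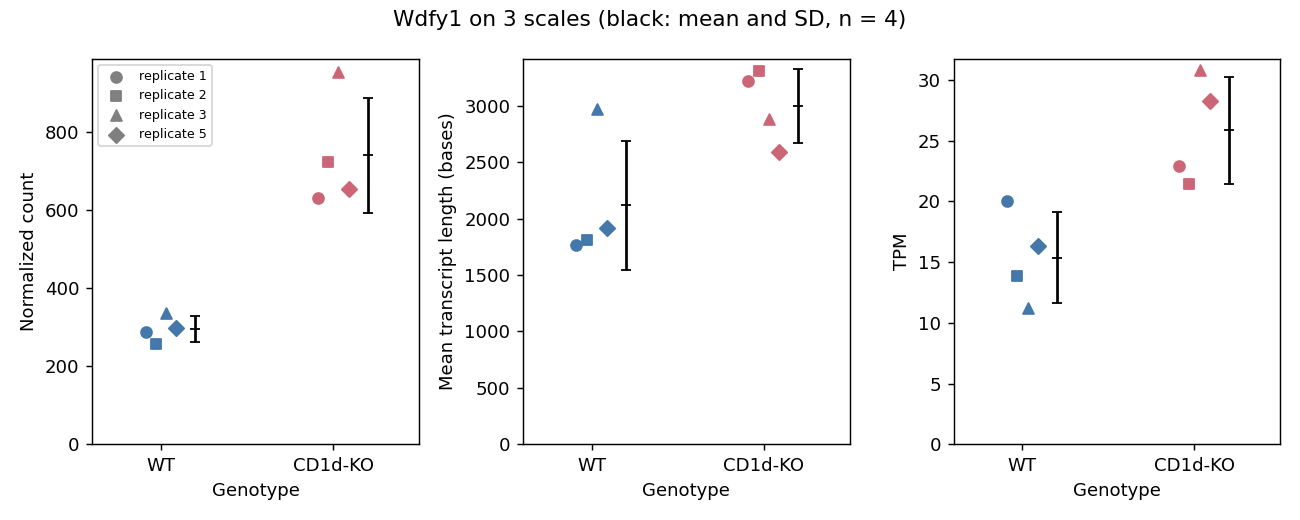
*Wdfy1* in each library as normalized count, mean transcript length in bases and TPM, with WT in blue, CD1d-KO in red, replicate numbers as marker shapes, and black bars for mean and SD (n = 4). Normalized counts and TPM do not overlap between the genotypes, and the mean length is 1765 to 1920 bases in 3 WT libraries but 2975 in WT replicate 3.

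*Sp100* (ENSMUSG00000026222, chr1:85649988-85709998, plus strand), the PML body component, was the most abundant member. It had 1081, 4606, 6237 and 3599 normalized counts in WT replicates 1, 2, 3 and 5, and 2287, 5005, 6806 and 5932 in the CD1d-KO libraries. The groups overlapped, replicate 1 was the lowest library in both genotypes, and replicate 3 was the highest in both. The means were 3881 ± 2160 and 5008 ± 1957 (SD, n = 4 each), a log2 fold change of 0.51 (standard error 0.16) that was 0.32 without replicate 1. The CD1d-KO level was 2.12, 1.09, 1.09 and 1.65 times the WT level in pairs 1, 2, 3 and 5.

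*Sp110* (ENSMUSG00000070034, chr1:85576899-85598817, minus strand) and *Sp140* (ENSMUSG00000070031, chr1:85600378-85645037, plus strand) encode the related chromatin readers and lie head to head. *Sp110* had 739, 2017, 2993 and 1709 normalized counts in WT replicates 1, 2, 3 and 5, and 1192, 2069, 3827 and 3069 in the CD1d-KO libraries. *Sp140* had 759.7, 1422, 3089 and 1455 in WT and 1285, 1679, 3888 and 2638 in CD1d-KO libraries. Both genes followed the order of *Sp100* in that replicate 1 was lowest and replicate 3 highest within each genotype, and the genotypes overlapped. The log2 fold change was 0.48 (standard error 0.13) for *Sp110* and 0.55 (standard error 0.11) for *Sp140*, and without replicate 1 it was 0.41 and 0.48. For *Sp110* the ratio within pair 2 was 1.03, so that WT and CD1d-KO were almost level there, and in pair 5 it was 1.80.

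The remaining members are copies of this family with larger fold changes and wider spread. *C130026I21Rik* (ENSMUSG00000052477, protein coding, chr1:84992690-85270566, minus strand) is annotated across several of the duplicated genes. It had 304, 289, 786 and 459.9 normalized counts in WT replicates 1, 2, 3 and 5, and 663, 436, 3652 and 1654 in the CD1d-KO libraries. CD1d-KO replicates 3 and 5 stood far above all others, and CD1d-KO replicates 1 and 2 lay within the WT range. The means were 459.9 ± 231 and 1601 ± 1466 (SD, n = 4 each), a log2 fold change of 1.48 (standard error 0.24) that was 1.60 without replicate 1.

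*Gm7609* (ENSMUSG00000079457, chr1:85199613-85213786, plus strand) is listed as a transcribed pseudogene in GENCODE M21. It had 69.95, 105, 148 and 111 normalized counts in WT replicates 1, 2, 3 and 5, and 111, 139, 591 and 331 in the CD1d-KO libraries. CD1d-KO replicates 3 and 5 were again above every WT library, while the other CD1d-KO libraries were not. Its log2 fold change was 1.21 (standard error 0.26), and 1.39 without replicate 1. *Gm15433* (ENSMUSG00000096802, a processed pseudogene, chr1:84963669-84964559, plus strand) was the least abundant member. It had 14.8, 48.7, 79.1 and 34.8 normalized counts in WT and 57.9, 49.5, 308 and 221 in CD1d-KO libraries. Pair 2 was level for this gene, with a ratio of 1.01, while the ratio was 6.36 in pair 5. Its log2 fold change was 1.71 (standard error 0.38), and 1.66 without replicate 1.

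All 7 members were higher in CD1d-KO in all 4 pairs, as were 1383 of 13040 tested genes (10.6%). Pair 2 had the smallest ratio of the 4 pairs for each of the 6 members of the *Sp100* cluster, from 1.01 to 1.51, but the ratio of *Wdfy1* in pair 2 was 2.83. Per length, *Sp100* was the highest member in WT pMacs with 203 ± 106 TPM (SD, n = 4), followed by *Sp110* (105 ± 44.4 TPM), *Sp140* (102 ± 53.1 TPM) and *C130026I21Rik* (66.5 ± 32.6 TPM). *Wdfy1*, *Gm7609* and *Gm15433* were lowest, the last 2 at 10.7 ± 2.29 and 5.38 ± 3.05 TPM. Over the 4 WT libraries the ranges of neighbours in this order overlapped, except that *C130026I21Rik* was above *Wdfy1* in all. In CD1d-KO pMacs the mean of *C130026I21Rik* was 200.1 ± 155 TPM, between *Sp100* (267 ± 96.5 TPM) and *Sp110* (146 ± 61.1 TPM), with an SD that spans both.

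The reads of the 6 cluster members are shared with near-identical genes, so how RSEM divided them affects each gene alone. Fractional counts were found in 8 of 8 libraries for each of the 6, and in 0 for *Wdfy1*. The transcripts of *Gm15433* and *Gm7609* were 99.3% identical over 891 bases. *C130026I21Rik* was 96.0% identical to *Sp140* over 979 bases and 98.6% identical to *Sp110* over 559 bases, and *Sp100* was 99.0% identical to *Gm7609* over 399 bases. *Wdfy1* shared no such stretch with a gene of the *Sp100* cluster. The strand setting of the counting is not given in the sources used here. Reads of the 287 bases that *C130026I21Rik* shares with *Gm16028*, on the opposite strand, therefore cannot be told apart. *C130026I21Rik* shared no near-identical stretch with *Gm7609*, which also lies within its bounds.

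Summed over the 25 genes of the *Sp100* cluster, which are the 6 members and 19 near-identical genes, values do not depend on how reads were divided within the cluster. The sum was 3345, 8820, 14290 and 7931 normalized counts in WT replicates 1, 2, 3 and 5, and 6185, 9814, 20750 and 15320 in the CD1d-KO libraries. The groups overlapped, and the CD1d-KO sum was 1.85, 1.11, 1.45 and 1.93 times the WT sum in pairs 1, 2, 3 and 5. The mean log2 ratio was 0.63 ± 0.37 (SD, n = 4 pairs), and 0.55 without pair 1. For *C130026I21Rik* alone the mean log2 ratio of pairs was 1.44, and summed with its near-identical genes of the cluster it was 0.68. Summed in the same way, it went from 1.16 to 0.59 for *Gm7609* and from 1.65 to 1.29 for *Gm15433*, but from 0.51 to 0.56 for *Sp100*, from 0.48 to 0.76 for *Sp110* and from 0.55 to 0.79 for *Sp140*. Near-identical stretches also lay outside the cluster. *Sp140* was 98.5% identical over 1236 bases to the opposite strand of an *Arhgef12* transcript on chromosome 9. The processed pseudogene *Gm5831*, 98.8% identical to *Sp140* over 881 bases, lies within the bounds of *Arhgef12*. *Arhgef12* had 4069 normalized counts on average, beside 2027 for *Sp140*. For *Sp100* the stretches outside the cluster had at most 128 bases, the longest in *Csf3r*, which had 4328 normalized counts on average. With all genes outside the cluster that share a stretch added to the sums, the mean log2 ratio was 0.30 for *Sp100* and 0.31 for *Sp140*. It was 0.49 for *Gm7609* and 0.75 for *Sp110*. These wider sums hold all counts of genes that share only a part of their sequence with a member.

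*C130026I21Rik* held 9.10%, 3.28%, 5.50% and 5.80% of the cluster sum in WT replicates 1, 2, 3 and 5, and 10.7%, 4.44%, 17.6% and 10.8% in the CD1d-KO libraries. Its share was higher in CD1d-KO in each pair, most in pair 3. The share of *Sp100* was 32.3%, 52.2%, 43.7% and 45.4% in WT and 37.0%, 51.0%, 32.8% and 38.7% in CD1d-KO libraries. It was lower in CD1d-KO in pairs 2, 3 and 5 and higher in pair 1.

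**Figure D3:**
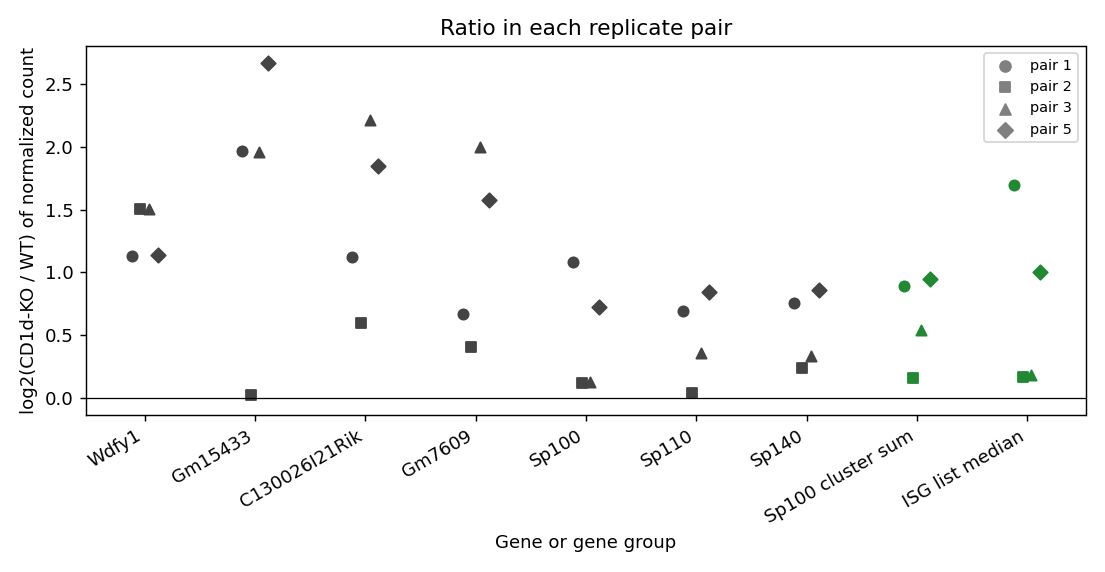
log2 ratio of CD1d-KO to WT in each replicate pair for the 7 members (grey), for the sum of the *Sp100* cluster and for the median of 25 interferon-stimulated genes, abbreviated ISG (both green). *Wdfy1* varies little between pairs, whereas pair 2 is near 0 for *Gm15433*, *Sp100*, *Sp110*, the cluster sum and the interferon-stimulated genes. Pair 3 lies at about the same level as pair 2 for *Sp100* and the interferon-stimulated genes.

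The other genes of the block were compared to see how far the difference reached. Of its 119 genes that are not members, 30 were tested, and 0 were called by edgeR, while 13 were higher and 0 lower at an unadjusted p under 0.05. Over all 13040 genes, 7.35% were higher and 5.01% lower at that level. DESeq2 called 1 gene of the block that is not a member, the pseudogene *Gm29284*. It had at most 2.31 normalized counts in WT libraries and 9.55, 0, 131 and 33.4 in CD1d-KO replicates 1, 2, 3 and 5, and it was too low for the edgeR filter.

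Some of the 19 near-identical genes in the cluster, called copies here, are annotations that overlap a member, such as *Gm17017*, antisense to *Sp140*. Of the 19, 12 were tested, with a median log2 fold change of 1.03 beside 0.0047 for all tested genes. At an unadjusted p under 0.05, 9 of these 12 were higher. Since the copies share reads with members that were selected for being higher, this count is not independent of the selection. Without replicate 1, 8 of 12 were higher at that level, and without replicate 5 it was 5 of 11. Among tested genes of the block that are not members, those with the largest fold changes in edgeR were all such copies, namely *Gm16028*, *Gm2619*, *Gm2666*, *Gm7592* and *Gm7582*, with log2 fold changes of 1.84, 1.74, 1.45, 1.29 and 1.19. None was called, and their adjusted p-values from edgeR were 0.169, 0.457, 0.15, 0.207 and 0.187. *Gm16028*, annotated antisense to *C130026I21Rik*, had 11.6, 11.4, 17.6 and 9.80 normalized counts in WT and 29.2, 11.3, 116 and 68.6 in CD1d-KO libraries, with the same high libraries as *C130026I21Rik*.

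The 18 tested genes of the block that are neither members nor copies had a median log2 fold change of 0.11, with 0 called, and 4 were higher and 0 lower at an unadjusted p under 0.05. These 4 were *Dock10*, which encodes an activator of small GTPases (0.51), *Rhbdd1*, a rhomboid protease gene (0.21), *Gm16094* (0.56) and the receptor gene *Gpr55* (0.61), with adjusted p-values from edgeR of 0.0731, 0.359, 0.322 and 0.379. The 11 tested genes between *Wdfy1* and *Gm15433* had a median log2 fold change of 0.09, and 2 were higher and 0 lower at an unadjusted p under 0.05. The 4 tested genes between *Sp100* and 86 Mb had a median of 0.07, and 1 of them was higher at that level. *Mrpl44*, a mitochondrial ribosome gene whose transcript overlaps that of *Wdfy1* by 126 bases, had a log2 fold change of 0.10 (adjusted p = 0.824 from edgeR). Within 5 Mb on either side of the block, 63 genes were tested and 0 called, 5 were higher and 3 lower at an unadjusted p under 0.05, and the median was 0.0030. The nearest tested genes outside were *Ap1s3*, a subunit of a clathrin adaptor (log2 fold change 0.08, adjusted p = 0.942 from edgeR), and the pseudogene *Gm18180* (-0.40, adjusted p = 0.877 from edgeR).

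**Figure D4:**
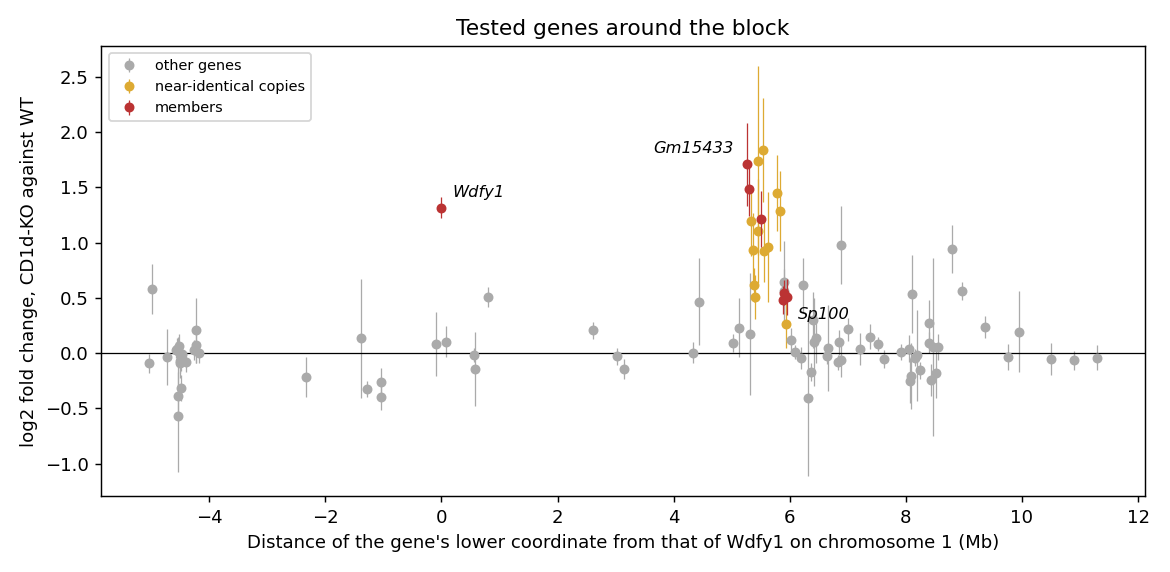
log2 fold change of CD1d-KO against WT, with standard errors from edgeR, for tested genes from 5 Mb before to 5 Mb after the block, by the distance in Mb of their lower coordinate from that of *Wdfy1*. *Wdfy1* stands alone at 0, members (red) and near-identical copies (yellow) form a second group near 5 to 6 Mb, and the 11 genes between *Wdfy1* and *Gm15433* (grey) have a median log2 fold change of 0.09.

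Genes that work with the members were examined by list, and neither edgeR nor DESeq2 called a gene of any list. Of 22 genes of TRIF and endosomal Toll-like receptor signalling, 22 were tested and 0 called, 2 were higher and 0 lower at an unadjusted p under 0.05, and the median log2 fold change was 0.13. The largest values were those of *Irf7*, a transcription factor of type I interferon that is also in the list of interferon-stimulated genes (0.90, adjusted p = 0.15 from edgeR), and *Tlr3*, the endosomal receptor of double-stranded RNA (0.46, adjusted p = 0.627 from edgeR). The lowest were *Ly96*, the partner of TLR4 (-0.10, adjusted p = 0.91 from edgeR), and *Irf3* (-0.06, adjusted p = 0.814 from edgeR). Of 21 tested WDFY and other endosome genes linked to PtdIns3P, not all of which bind it, 0 were called, 2 were higher and 1 lower at an unadjusted p under 0.05, and the median was 0.05. *Uvrag*, a Beclin partner in PtdIns3P formation (0.35), and *Wdr91* (0.28) were highest, and the early endosome gene *Rab5b* (-0.16) and *Rbsn* (-0.12) were lowest, with adjusted p-values from edgeR of 0.329, 0.233, 0.365 and 0.518.

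Of 20 tested genes of PML nuclear bodies, 0 were called, 2 were higher and 0 lower at an unadjusted p under 0.05, and the median was -0.02. The 2 were *Daxx*, a histone chaperone partner (0.49, adjusted p = 0.16 from edgeR), and *Pml*, the scaffold of the bodies (0.33, adjusted p = 0.263 from edgeR). The lowest were the helicases *Blm* (-0.17, adjusted p = 0.77 from edgeR) and *Atrx* (-0.12, adjusted p = 0.553 from edgeR).

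Of 25 interferon-stimulated genes, 25 were tested and 0 called by edgeR or DESeq2, but 24 were higher and 0 lower at an unadjusted p under 0.05, with a median log2 fold change of 0.74. *Ifit2* (1.32, adjusted p = 0.328 from edgeR) and *Ifit3* (1.22, adjusted p = 0.275 from edgeR), which encode antiviral RNA-binding family proteins, were highest. *Rtp4* (0.40, adjusted p = 0.523 from edgeR) and the RNA sensor *Ifih1* (0.43, adjusted p = 0.315 from edgeR) were lowest. The median log2 ratio of this list was 1.69, 0.17, 0.18 and 0.9997 in pairs 1, 2, 3 and 5. Without replicate 1, 16 of 25 were higher at that level, and without replicate 5 it was 7 of 25. In a fit that did not pair the libraries by replicate number, 0 of 25 were, and the median log2 fold change was 0.44. The summed level of the list was 15850, 119300, 236700 and 73620 normalized counts in WT replicates 1, 2, 3 and 5, and 47480, 140700, 270200 and 168700 in the CD1d-KO libraries. Libraries thus took the same order by this sum as by the cluster sum, apart from WT replicate 3 and CD1d-KO replicate 5, which changed places. Whether the level of interferon-stimulated genes in a library had a part in the values of the cluster members was not tested.

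**Figure D5:**
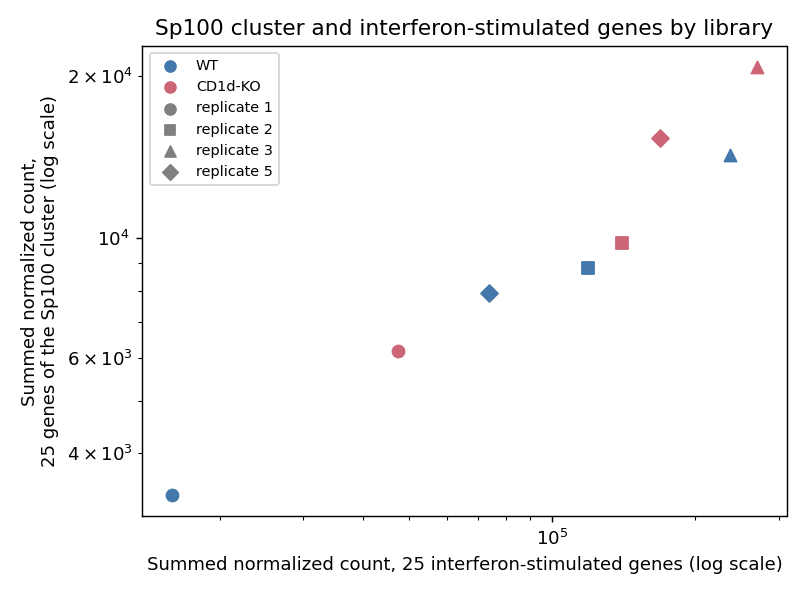
Summed normalized count of the 25 genes of the *Sp100* cluster against that of 25 interferon-stimulated genes in each library (both axes log), with WT in blue, CD1d-KO in red and replicate numbers as marker shapes. WT replicate 1 is lowest on both axes and CD1d-KO replicate 3 highest on both.

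The genes whose pattern over the 8 libraries was most like a member were sought among 9919 tested genes with at least 50 normalized counts on average. For *Sp100* these were *Dhx58*, *Lgals9* and *Phf11b*, each with a Pearson correlation of log2 CPM of 0.997. *Dhx58*, which encodes a relative of the sensor RIG-I, had 284, 2026, 2569 and 1271 normalized counts in WT and 777, 2134, 3202 and 2428 in CD1d-KO libraries. *Dhx58* thus had replicate 1 lowest and replicate 3 highest in both genotypes. For *Wdfy1* they were *Rps3a3* (0.981), *Rps3a2* (0.973) and *Tpm3-rs7* (0.971), copies of ribosomal protein and tropomyosin genes on chromosomes 13 and 14. *Rps3a3* had 9.70 to 30.3 normalized counts in WT and 2050 to 4735 in CD1d-KO libraries. *Rps3a3* also had the same order of libraries as *Wdfy1* within CD1d-KO, with replicate 1 lowest and replicate 3 highest, and replicate 2 was lowest and replicate 3 highest for both genes in WT. The genotypes did not overlap for any of these 4 genes, and the 8 libraries share that division.

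Markers of other cells were followed because lavage holds more than macrophages and B cell markers were present in these libraries of purified pMacs. Of 14 B cell markers, 13 were tested, 0 were called and 0 were higher or lower at an unadjusted p under 0.05. None of the 14 was at 0 in all libraries. Their summed level was 3342 to 9429 normalized counts in WT and 2141 to 15400 in CD1d-KO libraries, lowest in CD1d-KO replicate 2 and highest in CD1d-KO replicate 5. Pair 2 and pair 5 were also the pairs with the smallest and largest ratio of the cluster sum. The part of B cells in the cluster values was not tested. In pair 3, where *C130026I21Rik* had its largest ratio of 4.65, the B cell sum was 7105 in WT and 6326 in CD1d-KO.

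Of the other marker lists, edgeR called 0 genes. Of 13 T and NK cell markers 2 were tested, with a summed level of 74.6 to 145 normalized counts in WT and 56.7 to 158 in CD1d-KO libraries. Of small peritoneal macrophage and dendritic cell markers 12 were tested, and 0 were higher and 2 lower at an unadjusted p under 0.05, namely *Mrc1* (-0.62, adjusted p = 0.387 from edgeR) and *Itgax* (-0.48, adjusted p = 0.358 from edgeR). The log2 fold change was above 0 for 7 genes and below 0 for 5, with a median of 0.04. *Cd209a* (0.31, adjusted p = 0.503 from edgeR) and *Ccr2* (0.21, adjusted p = 0.898 from edgeR) were highest. The summed level was 17420 to 35110 normalized counts in WT and 11340 to 44210 in CD1d-KO libraries, lowest in CD1d-KO replicate 2 and highest in CD1d-KO replicate 5. Of granulocyte and mast cell markers 8 were tested, and 2 were higher and 1 lower, with *S100a8* highest (0.83, adjusted p = 0.101 from edgeR). The lowest were *Kit* (-0.85, adjusted p = 0.598 from edgeR) and *Mmp9* (-0.65, adjusted p = 0.246 from edgeR). The log2 fold change was above 0 for 2 of these genes and below 0 for 6, with a median of -0.37. Of 14 large peritoneal macrophage markers, 5 were higher and 1 lower, with *Garnl3* highest (0.65, adjusted p = 0.194 from edgeR) and *Cd5l* lowest (-0.46, adjusted p = 0.357 from edgeR). The summed level of the large peritoneal macrophage list was 377300 to 414500 normalized counts in WT and 315600 to 403600 in CD1d-KO libraries.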

How the data were processed

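The members and the gene lists were chosen with earlier results of these data known. Per the methods and the deposited files, the authors trimmed single-end reads of poly(A) libraries with Cutadapt, aligned them to GRCm38 with STAR 2.5.2a and made the deposited expected counts and TPM per Ensembl gene with RSEM 1.3.0, whose mean transcript length per gene was also used. RSEM divides reads that match several genes.

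Expected counts were rounded and scaled by TMM, and genes were filtered with filterByExpr and fitted with edgeR 4.0.16 (quasi-likelihood test, genotype and replicate number, Benjamini-Hochberg adjustment over all genes). The study's thresholds, an adjusted p below 0.01 and a fold change over 1.5, defined called genes. Alternatives used DESeq2 1.42.0 and limma 3.58.1. Near-identical genes were found with blastn 2.17.0 (at least 100 bases at 95% identity). Of the gene identifiers, 99.1% were matched to GENCODE M21. Replicate numbers were kept as pairs, since deviations of same-numbered libraries from their group means correlated at 0.487, 0.387, 0.505 and 0.207 for replicates 1, 2, 3 and 5. The highest correlation with a library of another number was -0.015, 0.025, 0.059 and 0.22, so replicate 5 did not correlate best with its own number. No 2 libraries agreed within sampling noise, and libraries are single mice. With replicate number in the fit, p-values of edgeR set the mean genotype difference against its variation between same-numbered pairs. That variation is estimated with information from all genes. Named genes were the members, *Cd1d1*, the 5 other block genes with the largest change, the nearest genes on either side, the 3 genes most correlated with *Wdfy1* and with *Sp100*, the 2 highest and 2 lowest of each list, and near-identical copies. *Mrpl44*, *Arl4c*, *Gm29284*, *Dock10*, *Rhbdd1*, *Gm16094* and *Gpr55* were added after their values were seen.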

Additional observations from a re-analysis of the deposited data

Results flagged for a closer look

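Among 48 groups of 4 libraries checked (members, *Cd1d1*, the cluster sum, the genes most like a member and the list sums), 3 held a library far from the others. Chance alone would single out about 1 in 20 groups. *Cd1d1* had 60.13 normalized counts in the library labelled CD1d-KO replicate 1, far above the other CD1d-KO libraries. In the same library *Tpm3-rs7* had 1974 normalized counts, far below the 4636 to 5015 of the other CD1d-KO libraries but above the 81.3 to 121 of the WT libraries. In this library *Rps3a3* (2050) and *Rps3a2* (3030) were likewise above all WT libraries, which had at most 30.3 and 170.0 normalized counts. These 3 genes thus follow the label where *Cd1d1* does not. They were picked for following *Wdfy1* over all 8 libraries, this library included, and *Wdfy1* was chosen for being higher in CD1d-KO. Their values are therefore no independent check of the label. The summed level of large peritoneal macrophage markers was 414500 normalized counts in WT replicate 2, above the other WT libraries. No member and no cluster sum met this criterion, CD1d-KO replicate 3 at *C130026I21Rik* included.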

How the results depend on the processing

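Replicate numbers were kept as pairs in the edgeR fit, and without the replicate block 3 genes were called in place of 5, *Wdfy1* had a log2 fold change of 1.33, and the interferon-stimulated genes higher at an unadjusted p under 0.05 dropped from 24 to 0 and the near-identical copies from 9 to 2. DESeq2 called 103 genes and 1 neighbour in the block, testing every gene with a count gave 236, and an adjusted p under 0.05 with no fold threshold gave 53. Leaving out 1 replicate number at a time, 3 to 22 genes were called, with 22 without replicate 2, 7 to 24 interferon-stimulated genes and 5 to 12 copies were higher at an unadjusted p under 0.05, the last 2 counts chosen after seeing the data. The log2 fold change of *Wdfy1* was 0.73 on log2(TPM + 1). Of 70 values of members under an alternative, 69 moved by less than the SD over pairs, which was 0.21 for *Wdfy1* and 1.14 for *Gm15433*. Leaving out 1 pair can hardly move a mean by that much, so nothing is read from this count. Over the alternatives the log2 fold change was 0.32 to 0.64 for *Sp100* and 1.36 to 2.21 for *Gm15433*. Summed with genes that share a repeat, the log2 ratio of *Wdfy1* was 0.26, and that of *C130026I21Rik* was 0.68 with its near-identical genes and 0.63 over the whole cluster. In 72 of 72 alternatives for the list counts, 0 genes were called. Depth limits *Gm15433* and most copies, which had under 100 counts in WT libraries.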

Other observations

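Within 5 Mb of the block, *Arl4c*, which encodes a small GTPase, was the only gene with an adjusted p under 0.05 in edgeR (log2 fold change 0.56, adjusted p = 0.0435), and it did not pass the threshold of 0.01. It lies 8.97 Mb from *Wdfy1* and shares no near-identical stretch with a member.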
